A study of Mus musculus with 9 samples.

Results

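The wide SAFB peaks are the stretches of 2000 bases or more in the authors' list of RNA regions recovered with SAFB from mouse embryonic stem cells. They were chosen by width alone, as the end minus the start of each listed peak, and 1481 of the 30998 peaks (4.78%) qualified. The remaining 29517 peaks are narrower, and 7467 of them span 1000 to under 2000 bases. Because the members were selected on width, width is described here and not tested.

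SAFB was pulled down from sonicated lysates and the RNA that came with it was sequenced (RNA immunoprecipitation, RIP-seq). All cells were embryonic stem cells of the line CAST/B6 Male Rosa26-RMCE, a cross of castaneus and B6 strains that carries a docking site for transgenes at Rosa26, and all received doxycycline for 3 days. The 9 libraries form 5 groups: SAFB1 antibody in clones that lack both Safb and Safb2 (double knockout, 2 libraries), FLAG antibody in such cells after rescue with a SAFB1 plasmid (1), FLAG antibody in such cells given an eGFP plasmid (1), SAFB1 antibody in wild-type cells (3, from the parent line and 2 clones), and IgG in wild-type cells (2, from the parent line and a clone). Both FLAG libraries come from the same knockout clone, and the rescue library has a genotype label of WT although its title names that clone, so the title was followed. The list analysed here is 1 list for the whole series with positions and no reads per library, so neither depth nor a difference between antibodies or genotypes can be given for any peak. Each peak has a name that includes wt_saf and its strand. The list has no replicates, and the intervals given for shares take each peak as independent of the others and cover only counting error. Transcripts of the pluripotency genes Tet1, Esrrb and Zfp42 hold peaks, but only 6 of 24 listed pluripotency genes have a peak on their strand. So do 8 of 15 listed primitive endoderm genes and 4 of 16 fibroblast genes. Positions show no expression level and so do not check the cell type.

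SAFB, SAFB2 and SLTM are abundant nuclear proteins with an RNA recognition motif, a SAP domain that binds DNA of scaffold attachment regions, and long stretches rich in charged residues. They bind pre-mRNA and other nuclear RNA, and purine-rich sequence is known to attract them. A peak in RIP-seq data marks a stretch of RNA covered by reads and not a single contact, so a wide peak may hold many contacts or few.

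The sequences below show what RNA lies under the widest peaks that sit wholly inside 1 exon and in coding sequence, together with the widest of that layout in an exon of a lncRNA (Meg3, added after its values were seen). Each line gives the 120 bases with most purines (A and G) in the peak, 5′ to 3′, from the GENCODE M21 transcripts on GRCm38, written as DNA. Capitals mark every AGAAGA, every hexamer GAAGAA and every hexamer AAGAAG, overlaps included, searched on the RNA strand only.
Macf1: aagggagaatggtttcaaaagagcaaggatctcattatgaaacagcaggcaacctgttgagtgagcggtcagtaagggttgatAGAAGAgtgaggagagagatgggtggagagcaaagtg
Nexmif: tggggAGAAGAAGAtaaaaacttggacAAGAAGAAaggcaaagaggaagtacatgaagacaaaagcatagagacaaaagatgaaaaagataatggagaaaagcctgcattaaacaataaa
Amer1: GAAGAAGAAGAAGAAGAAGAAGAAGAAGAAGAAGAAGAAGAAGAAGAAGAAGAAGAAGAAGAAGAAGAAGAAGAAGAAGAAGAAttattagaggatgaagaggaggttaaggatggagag
Naca: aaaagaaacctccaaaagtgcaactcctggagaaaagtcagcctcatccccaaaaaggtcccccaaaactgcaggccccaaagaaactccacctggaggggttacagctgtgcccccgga
Zfp619: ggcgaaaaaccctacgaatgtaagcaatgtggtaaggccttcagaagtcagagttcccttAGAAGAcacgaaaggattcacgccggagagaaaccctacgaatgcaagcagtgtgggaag
Arhgef5: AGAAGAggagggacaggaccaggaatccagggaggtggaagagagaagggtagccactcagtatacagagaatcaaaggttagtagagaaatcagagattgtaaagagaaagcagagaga
Meg3: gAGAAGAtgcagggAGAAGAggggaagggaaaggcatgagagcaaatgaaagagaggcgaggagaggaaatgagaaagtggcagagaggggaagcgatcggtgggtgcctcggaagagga
These windows lie at chr4:123472095-123472214, minus strand (Macf1), chrX:104087074-104087193, minus strand (Nexmif), chrX:95427248-95427367, minus strand (Amer1), chr10:128042274-128042393, plus strand (Naca), chr7:39537443-39537562, plus strand (Zfp619), chr6:43273273-43273392, plus strand (Arhgef5) and chr12:109561473-109561592, plus strand (Meg3). The Amer1 window opens with an unbroken repeat of gaa, and the hexamers cover 84 of its 120 bases. The Meg3 window is 84.2% purine and the Nexmif window 79.2%. Naca stands at the other end: its richest window is 55.0% purine and holds none of these hexamers. A wide peak of the other strand also covers the Naca window, and only the strand of the gene was read. Windows of 120 bases were also laid end to end, without picking by content. At least 1 of the hexamers lies in 20.6% of 3680 under exonic wide peaks and 25.5% of 13949 under exonic remaining peaks. The windows shown were picked for purines, which favours these all-purine hexamers, so their matches cannot be set against these shares. A match describes the letters and is not a binding site.

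The wide peaks have a median width of 2314 bases (quartiles 2132 and 2608, maximum 5062), and the remaining peaks one of 559 bases (quartiles 278 and 1006). They cover 3.60 Mb, or 15.1% of all peak bases. Most lie near the limit: 999 span 2000 to under 2500 bases, 349 span 2500 to under 3000, 133 reach 3000 and 14 reach 4000. Just inside the limit are 1 peak of 2000 bases and 2 of 2001, and just outside it are 2 peaks of 1998 bases and 3 a base wider. The list has no gap at the limit, so the wide peaks are the upper end of a continuous range.

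**Figure D1:**
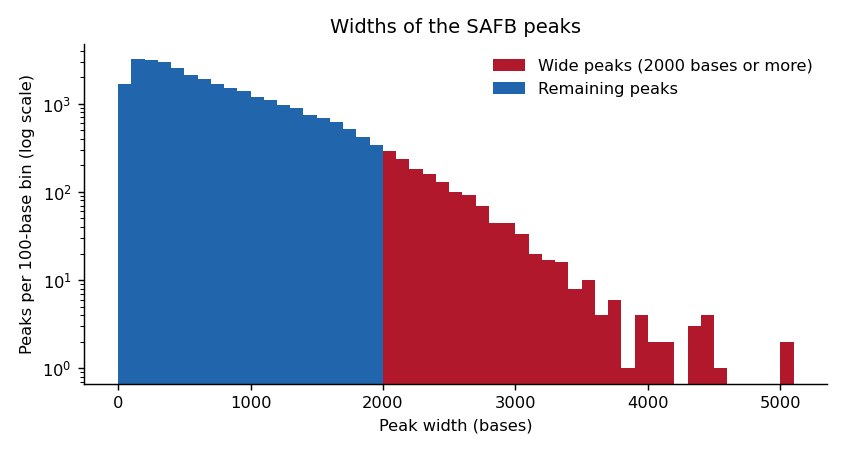
Widths of the 30998 SAFB peaks in bins of 100 bases, with wide peaks in red and remaining peaks in blue; the vertical axis counts peaks on a log scale. The counts fall smoothly across 2000 bases and reach single peaks above 4000, the widest being 5062 bases.

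The widest peak of the list lies in Macf1, which encodes a giant protein that links microtubules to actin. It spans 5062 bases at chr4:123471027-123476088 on the minus strand, wholly inside 1 exon of 5361 bases and wholly in coding sequence. The peak of Vac14, a scaffold of the complex that makes the lipid PI(3,5)P2, spans 5038 bases at chr8:110712066-110717103 and is 56.2% exonic, with 2599 of its bases in the 3′ UTR. Morc1, an ATPase of the MORC family known for silencing transposons in the male germ line, has an intronic peak of 4505 bases. Grip1, a scaffold of glutamate receptors, has one of 4465 bases. Nexmif, an X-linked gene known for its part in neurite extension, follows with a coding peak of 4373 bases at chrX:104083857-104088229. Of the 20 widest peaks, those in a sense gene that follow are Ntmt1 (4362 bases), a methyltransferase of protein N termini, 1700086P04Rik (4354) and 4930519F16Rik (4182), both intronic. Next come Shroom3 (4086), an actin regulator of neural tube closure, Dlg1 (3997), a polarity scaffold, and Elavl1 (3930), whose product HuR stabilises mRNAs. The last are Nxn (3809), a redox protein, and Ccdc134 (3780), which is 87.5% exonic. Introns hold most of these peaks, and coding exons hold the first.

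The other 7 of the 20 widest lie outside sense genes. The largest, 4483 bases at chr12:109572318-109576800, begins 591 bases past the annotated end of Meg3. A peak of 4431 bases at chr7:109521793-109526223 is antisense to St5 and overlaps the ribosomal protein gene Rpl27a on its own strand, and one of 4425 bases at chr2:84739221-84743645 overlaps Mir130a. Another of 3936 bases at chr8:126425664-126429599 is antisense to Tarbp1 and starts 230 bases past the end of Coa6. A peak of 3996 bases is antisense to Zmynd8. A peak of 4070 bases has as nearest gene of its strand Ints8, whose end is 15870 bases away. Of the 7 peaks, 4 thus overlap or closely follow an annotated gene on the same strand.

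Wide peaks lay in genes more often than the remaining ones. The midpoint fell in a gene on the same strand (sense) in 1192 wide peaks (80.5%, 95% Wilson interval 78.4 to 82.4) and in 66.0% of the remaining peaks, a difference of 14.5 percentage points (95% Newcombe interval 12.3 to 16.5). As background, 5.77% of all 20667 sense peaks are wide. Both parts of the gene contributed. Exons held 282 wide peaks (19.04%) and 11.8% of the remaining ones, a difference of 7.25 points (5.30 to 9.36). Introns held 910 wide peaks (61.4%) and 54.2% of the remaining ones, a difference of 7.26 points (4.69 to 9.77). Outside genes the order turned: 161 wide peaks (10.9%) and 20.8% of the remaining ones lay there, a difference of -9.90 points (-11.5 to -8.15). Antisense to genes lay 128 wide peaks (8.64%) and 13.2% of the remaining ones, a difference of -4.61 points (-5.99 to -3.02). Against the remaining peaks of 1000 to under 2000 bases alone, the class differences were smaller. They were 3.68 points for exons (1.59 to 5.91), 3.00 for introns (0.26 to 5.69) and -5.83 outside genes (-7.55 to -3.95). The antisense difference was -0.85 points and its interval included 0.

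The share outside genes was lower in each wider bin up to 2500 bases, and its largest drop between neighbouring bins fell at the 2000-base limit. Peaks under 300 bases lay outside genes in 23.4% of cases, those from 1000 to 1500 in 17.2%, those from 1500 to 2000 in 15.7% and those from 2000 to 2500 in 10.8%, and the intervals of these last 2 bins (14.3 to 17.1 and 9.03 to 12.9) do not overlap. Above 2000 bases this share stayed level, at 10.9% from 2500 to 3000 bases and 11.3% from 3000. The exon share was 10.7% under 300 bases, 8.52% from 300 to 600 bases, 14.5% from 1000 to 1500 and 20.1% from 2000 to 2500. Among the wide peaks themselves it was 16.0% from 2500 to 3000 bases and 18.8% from 3000, with overlapping intervals.

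**Figure D2:**
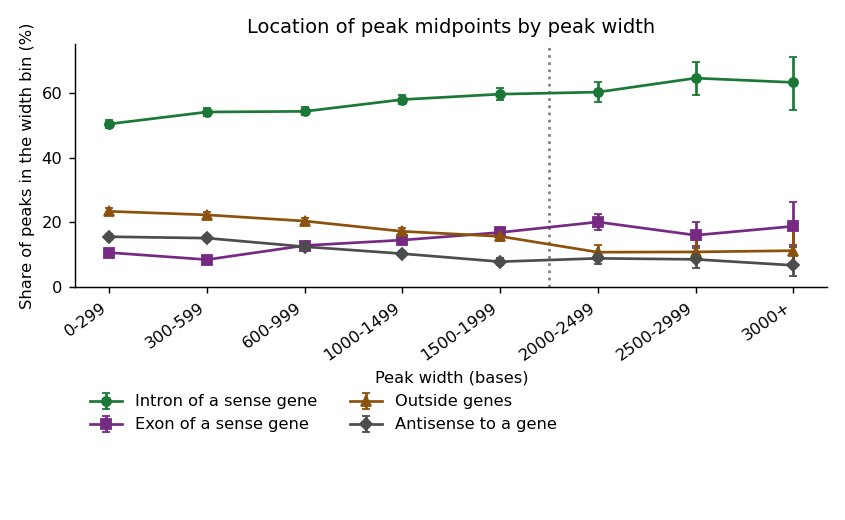
Share of peaks (vertical axis, %) whose midpoint lies in a sense intron, in a sense exon, outside genes or antisense to a gene, by peak width in bases (horizontal axis); bars are 95% Wilson intervals and the dotted line marks the 2000-base limit. The share outside genes is 23.4% in the narrowest peaks and 10.8% to 11.3% in the 3 bins of wide peaks.

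The kind of gene did not separate the sets beyond counting error. Protein-coding genes took 1102 of the 1192 sense wide peaks (92.4%) and 91.5% of the remaining ones, a difference of 0.91 points (-0.77 to 2.34). lncRNA genes took 73 wide peaks (6.12%) and 7.11% of the remaining ones, a difference of -0.98 points (-2.26 to 0.57). Chromosome 7 had the highest share of wide peaks, 125 of 1820 (6.87%, 5.79 to 8.12), and chromosome 1 the lowest of the autosomes, 72 of 2075 (3.47%, 2.76 to 4.35). Wide peaks stood further from their neighbours: the nearest peak of the same strand was a median of 9.06 kb from a wide peak and 5.48 kb from a remaining one. A neighbour within 1 kb was found for 14.4% of wide peaks and 23.9% of remaining peaks. Width and gap come out of the same calling step, which is not described in the sources used here.

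Genes with a wide peak were many, and most had only 1. At least 1 wide sense peak was found in 980 of the 6683 genes with any sense peak (14.7%), of which 846 held exactly 1, 93 held 2 and 41 held 3 or more. Their median length was 77.0 kb, against 41.2 kb in genes with narrower peaks only, and longer genes also hold more peaks. Per peak the order was the other way: 7.29% of sense peaks were wide in genes under 10 kb, 7.68% from 10 to 30 kb, 6.27% from 30 to 100 kb, 6.04% from 100 to 300 kb and 3.70% above. The longest genes therefore have wide peaks often, but a smaller share of their peaks are wide.

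The genes with most wide peaks are very long. Wwox, an oxidoreductase gene of 913 kb known in human as the site of a common fragile site, had 10 wide peaks of 45, from 2045 to 3413 bases. Grip1 also had 10, of 167 peaks. Pde4d, a cAMP phosphodiesterase gene of 1504 kb, had 9 of 151. Tenm4, which encodes a teneurin, had 8 of 72, and Dpp6, an auxiliary subunit gene of Kv4 potassium channels, had 8 of 158. Wide peaks were thus 22.2% of the peaks of Wwox and 11.1% of those of Tenm4, but 5.99% of those of Grip1, 5.96% of those of Pde4d and 5.06% of those of Dpp6, close to the 5.77% of all sense peaks. In Dpp6 all 8 were wholly in introns of that gene, and in Wwox and Grip1 9 of 10 each. In Grip1, 1 of these 9 has its midpoint in an exon of an overlapping gene. The wide peaks spread along the gene, from 13.0% to 91.5% of its length in Wwox and from 12.1% to 85.8% in Grip1. In Dpp6 they lay between 11.3% and 40.8%.

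Next came 7 genes with 4 wide peaks each. They are Frmd5, 4930519F16Rik, AW554918, Cacna1a (the pore subunit of P/Q-type calcium channels), Babam2 (a member of the BRCA1-A complex), St6galnac3 (a sialyltransferase) and 2610307P16Rik. The list of 15 closes with 3 genes of 3 wide peaks, Eps8, Sulf1 and Ntn1, taken from more genes with 3 by order of identifier. Eps8, which caps actin filaments, had no narrower peak: its 3 peaks span 2046, 2296 and 2339 bases. Sulf1, a heparan sulfate sulfatase, had 3 wide of 47 and Ntn1, the guidance cue netrin, 3 of 53. The 15 genes, picked for their count of wide peaks, together held 82 of the sense wide peaks (6.88%), so most lay in other genes. Whether this exceeds the share of all sense peaks in these 15 genes was not tested.

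**Figure D3:**
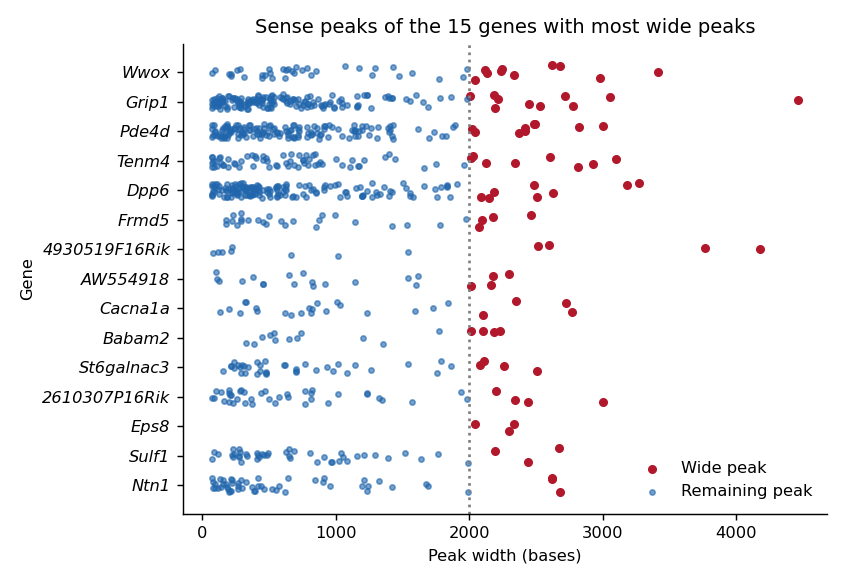
Width in bases (horizontal axis) of every sense peak of the 15 genes with most wide peaks (rows), with wide peaks as red points and remaining peaks as blue points; vertical scatter within a row has no meaning. Wwox and Grip1 have 10 wide peaks each, Grip1 of 167 in all, and Eps8 has wide peaks only.

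Among the 1003 genes with at least 5 sense peaks, wide peaks made up most of the peaks in a pair of genes. Rps6ka2, a ribosomal S6 kinase gene, and Rfx7, a transcription factor gene, each had 3 wide peaks of 5. In Rfx7 these span 2795, 2467 and 2456 bases, and the widest lies inside 1 exon. Rngtt, the mRNA capping enzyme gene, had 3 of 7, at 2101, 2030 and 2012 bases, all intronic. Zfp704 had 3 of 8, the widest 3581 bases. Crebbp (a histone acetyltransferase), Apex2 (an endonuclease of base excision repair), Garnl3, Klf8 (a transcription factor), Bcas3 and the lncRNA Gm11520 had 2 of 5. With so few peaks a gene, these shares are descriptions of single genes.

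Exonic bases made up a mean of 20.8% of a sense wide peak (SD 35.5 across 1192 peaks), against 15.6% of a remaining one (SD 32.9 across 19475 peaks) and 17.5% in those of 1000 to under 2000 bases. The median was 0 in both sets, since most sense peaks are wholly intronic. At least 50% exonic were 238 wide peaks (20.0%) and 15.8% of the remaining ones. This higher exon content rests on counting every peak alike. When each gene is weighted once, the difference in mean exonic share, 5.22 points as counted, is -2.67 points, so the direction turned.

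The exon share also depended on the length of the gene. In genes of 10 to 30 kb, the midpoint lay in an exon in 99 of 185 wide peaks (53.5%) and in 36.2% of the remaining ones, a difference of 17.3 points (9.84 to 24.6). In genes of 30 to 100 kb it did so in 18.2% of wide peaks and 21.7% of the remaining ones, a difference of -3.59 points (-7.64 to 1.19). In genes under 10 kb, from 100 to 300 kb and above 300 kb the differences were 6.43, 1.61 and 1.99 points, and each interval included 0. The exon excess of wide peaks was thus seen beyond counting error in 1 of 5 length classes, although the differences between classes were not tested.

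Within single genes the counts and the means differed in direction. In 663 genes with both kinds, the wide peaks had more exonic bases per length than the remaining peaks in 159 genes, fewer in 238 and the same in 266, while the mean over these genes was 15.3% for wide and 13.9% for remaining peaks. That count sets usually 1 wide peak against a mean over several remaining ones. In the 150 genes with exactly 1 of each, the wide peak had the higher share in 50, the lower in 38, and 62 were tied, with means of 29.4% for the wide and 26.9% for the remaining peaks.

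Wide peaks crossed exon borders more often when taken whole, but not at equal length. Of the 1192 sense wide peaks, 362 (30.4%) crossed a border, against 15.3% of the remaining ones. The difference was 15.1 points (12.5 to 17.8), and 8.36 points (5.58 to 11.2) against remaining peaks of 1000 to under 2000 bases. Taking only the central 500 bases of each peak, 7.21% of the wide and 9.24% of the remaining peaks crossed one, a difference of -2.02 points (-3.46 to -0.33), so the direction turned. Wholly inside 1 exon lay 114 wide peaks (9.56%) and 7.65% of the remaining ones, a difference of 1.92 points (0.33 to 3.76). With the central 500 bases this was 17.5% of the wide and 12.9% of the remaining peaks, a difference of 4.60 points (2.46 to 6.95), yet with each gene weighted once the difference for whole peaks was -2.73 points. No exonic base of their assigned gene was held by 716 wide peaks (60.1%) and 77.1% of the remaining ones. Some of these peaks lie over an exon of another gene on the same strand. With the central 500 bases these shares were 75.3% and 77.8%, a difference of -2.58 points (-5.22 to -0.09).

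**Figure D4:**
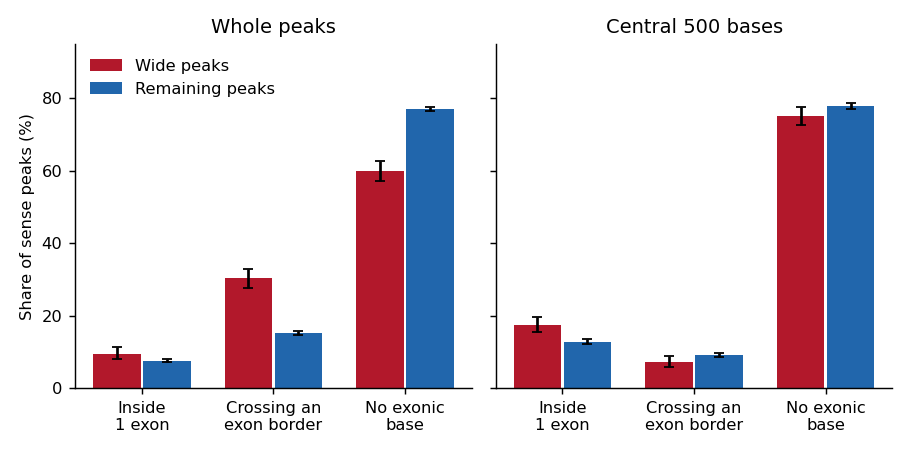
Share of sense peaks (vertical axis, %) that lie inside 1 exon, cross an exon border or hold no exonic base of their assigned gene. Wide peaks are red (left) and remaining peaks blue (right), with 95% Wilson intervals. The left panel uses whole peaks and the right panel the central 500 bases of peaks of at least 500 bases. Crossing is 30.4% in wide and 15.3% in remaining peaks in the left panel, and 7.21% in wide and 9.24% in remaining peaks in the right panel.

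Some wide peaks ran through whole introns, with exonic sequence on both sides. An intron is counted here only where the stretch between exons is exonic in no annotated transcript of the gene. At least 1 whole intron lay inside 115 sense wide peaks (9.65%) and 2.02% of the remaining ones. At least 2 lay inside 33 wide peaks (2.77%) and 59 remaining ones (0.30%). Utp14a, a gene of ribosomal small-subunit processing, had 4 whole introns in a peak of 2427 bases that is 33.2% exonic. Gmpr2 (GMP reductase, 3070 bases), Gstt2 (a glutathione transferase, 2887 bases), Arhgap4 (2337 bases) and Spata24 (2185 bases) had 3 each. A wider peak has more room for an intron, and this count was not set at equal length.

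Which kind of exonic sequence stood out depended on the measure. The exons that held the 114 wholly exonic wide peaks had a median length of 3597 bases, against 2415 bases for the remaining ones, and an exon of at least 2000 bases is needed by definition. Of the 114, 22 (19.3%) lay only in coding sequence, 15 (13.2%) only in 3′ UTR and 43 (37.7%) across both. Of the 1489 remaining ones the shares were 15.0%, 24.4% and 16.7%. Only in exonic sequence outside annotated coding sequence and UTRs lay 16 of the 114 and 472 of the 1489. A wider peak covers more than 1 kind more easily, and the part of width in this split was not tested. By midpoint, 71 of 282 exonic wide peaks (25.2%) lay in 3′ UTR and 19.1% of the remaining ones, a difference of 6.10 points (1.20 to 11.6). Against peaks of 1000 to under 2000 bases the difference was 3.73 points and its interval included 0. Coding sequence took 108 (38.3%) of the wide and 40.8% of the remaining peaks, a difference of -2.54 points (-8.26 to 3.48), and 5′ UTR only 3 wide peaks (1.06%) against 3.39%. Along the gene, the midpoint lay in the first 10% of the gene in 6.80% of sense wide peaks and 8.64% of the remaining ones, a difference of -1.85 points (-3.20 to -0.23), and in the last 10% in 10.3% of the wide and 11.0% of the remaining ones, a difference of -0.68 points (-2.34 to 1.23). For a peak that starts at a gene border, the midpoint lies further inside the gene the wider the peak. The part of width in these position shares was not tested. The annotated gene end was reached by 34 wide peaks (2.85%) and 1.31% of the remaining ones, and a wider peak reaches a border more easily.

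The 10 widest peaks wholly inside 1 exon lie in genes of varied function. After Macf1 and Nexmif comes Git2, a GTPase-activating protein of Arf, with 3494 bases in an exon outside its annotated coding sequence and UTRs. Zbed6, a transposon-derived repressor of Igf2, has 3301 bases at chr1:133656794-133660094, where 4 sense genes overlap, so its reads may belong to another of them. Amer1, a regulator of Wnt signalling, has 3291 bases and Dido1, a chromatin reader, 3240. Naca, a subunit of the nascent polypeptide-associated complex, has 3155 bases in the large exon known for its muscle-specific form. A wide peak of the other strand, 2174 bases at chr10:128041774-128043947, lies within it, so the strand of the RNA there is uncertain. Zfp619, a zinc finger gene, has 3013 bases, Arhgef5 2963 and Inka2, an inhibitor of PAK4, 2845.

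Zinc finger genes recurred there, a pattern picked out after the values were seen. Genes with symbols of the form Zfp and a number held 22 of the 114 wide peaks wholly inside 1 exon (19.3%), in 22 genes, and 6.18% of the 1489 remaining ones of that layout. Only the wide ones need an exon of at least 2000 bases, and the part of exon length in this contrast was not tested. Such genes usually code for their fingers in a single long last exon, and the wide peaks lay 73.6% in coding sequence and 25.7% in 3′ UTR. Over all layouts they held 4.70% of sense wide peaks and 2.12% of remaining ones. Some genes so named are close to each other in sequence, and how shared reads were assigned is not stated. The gene behind such a peak can therefore be uncertain.

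Purine content did not set the wide peaks above the rest. Among exonic peaks with at least 100 bases of transcript sequence, A and G made up a median of 52.9% of a wide peak (quartiles 50.5 and 55.2, n = 233) and 53.9% of a remaining one (quartiles 50.7 and 57.9, n = 2721). Remaining peaks of 1000 to under 2000 bases had 53.2%. In coding sequence the medians were 53.4% for wide and 55.2% for remaining peaks, and in 3′ UTR 52.1% for wide and 52.0% for remaining peaks. Wide peaks spread less, from 44.1% to 65.2%, against 34.5% to 90.7%, and a longer stretch averages over more sequence. At least 1 of the 3 hexamers was present in 91.4% of wide and 72.0% of remaining peaks, and in 85.7% of those of 1000 to under 2000 bases. By contrast, the mean share of bases they cover was 1.49% in wide and 2.34% in remaining peaks, and 1.67% in those of 1000 to under 2000 bases.

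**Figure D5:**
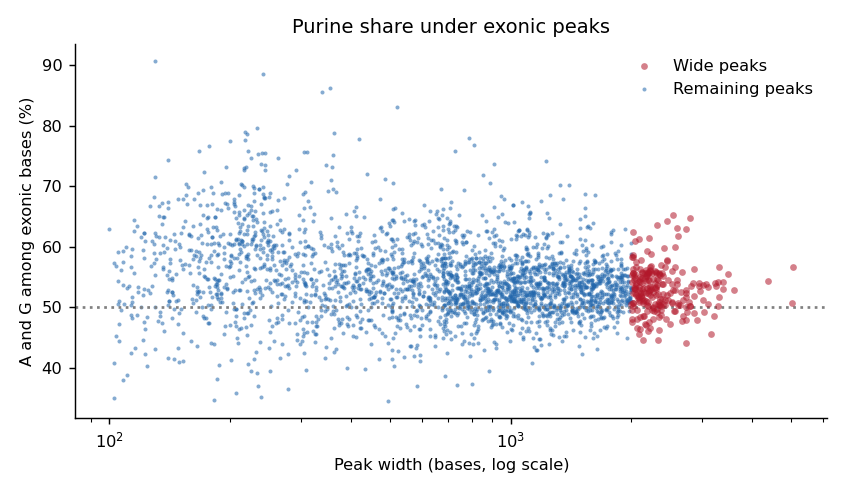
Share of A and G among the exonic bases of each exonic peak (vertical axis, %) against peak width in bases (horizontal axis, log scale), with wide peaks in red and remaining peaks in blue; the dotted line marks 50%. Wide peaks range from 44.1% to 65.2% around a median of 52.9%, inside the 34.5% to 90.7% of the remaining peaks.

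The purine-rich end of the wide peaks, picked by value, holds coding exons and exons of lncRNAs. Tchh, which encodes the hair follicle protein trichohyalin, was highest at 65.2%. Meg3 followed at 64.7%, Ehbp1l1 at 64.3% and Akap9, a centrosome and Golgi scaffold with long coiled coils, at 63.6%. At the low end stood the lncRNA Gm10501 at 44.1%, the 3′ UTR of Dap3 at 44.6% and Naca at 45.5%.

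Non-coding genes with most wide peaks were 4930519F16Rik (annotated as a pseudogene) and the lncRNA 2610307P16Rik, with 4 each of 12 and 43 peaks. The pseudogene Nlrp5-ps had 3 of 10. Airn, the paternally expressed RNA that silences the Igf2r domain in cis, had 2 of 21, at 2274 and 2066 bases. Trp53cor1, the p53-induced lincRNA-p21, had 2 of 3, at 2487 and 2252 bases, and 4732471J01Rik and Gm11520 had 2 each. Meg3 and the lncRNAs Gm9725 (2008 bases) and Gm11696 (2239 bases) close the list of 10 with 1 each, tied with others.

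The imprinted interval that runs through Meg3, Rian and Mirg on chromosome 12 was dense in wide peaks, and was singled out after its values were seen. On the maternal chromosome these non-coding RNAs, many miRNAs and C/D box snoRNAs are made from the same strand. Of 21 plus-strand peaks between the start of Meg3 and the end of Mirg (chr12:109541001-109749460, 208 kb), 7 were wide (33.3%), beside 4.78% of the whole list. The first lies in a long exon of Meg3 at chr12:109559470-109562265 (2796 bases). The second is the 4483-base peak past the end of Meg3, and the third, 2613 bases, overlaps Mir431 antisense to Rtl1, a paternally expressed gene derived from a retrotransposon. Rian, host of the snoRNAs, has one of 2965 bases in an intron. B830012L14Rik has one of 2258 bases, a peak of 2557 bases overlaps Mir379, and Mirg has one of 2522 bases that is 43.3% exonic. The other 14 peaks there span 179 to 1852 bases, and wide and narrow peaks are interspersed.

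Lists of genes chosen for their role are given by counts, beside the 14.7% of all genes with a sense peak that have a wide one. Over the 16 lists, 37 of the 192 genes with a peak held a wide one (19.3%). Of the nuclear and imprinted non-coding RNAs, 7 of 18 did: Rian (2965 bases), Firre (2900), Meg3 (2796), Mirg (2522), Airn (2274), Kcnq1ot1 (2230) and Malat1 (2037). Firre shapes nuclear architecture, Kcnq1ot1 silences an imprinted domain and Malat1 is an abundant RNA of nuclear speckles. Xist had 1 peak, of 1205 bases. SAFB's own family had none: the widest peak was 1933 bases in Sltm, 1771 in Safb2 and 939 in Safb.

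Genes of RNA processing and translation gave small counts. Of the SR proteins and cofactors it was 1 of 12, Acin1 (2623 bases, 50.7% exonic), a component of the splicing-dependent ASAP complex. Of the hnRNP and nuclear matrix genes it was 2 of 8, Hnrnpl (2570 bases) and Ptbp3, whose only peaks are 2 intronic ones of 2487 and 2261 bases. Of the RNA helicases it was 1 of 8, Dhx57 (3697 bases). Heatr1 (2516 bases) and Utp14a were 2 of 11 ribosome biogenesis genes. None of the 7 genes of translation factors and ribosomal proteins with a peak had a wide one.

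Genes of chromatin, DNA upkeep, transcription and cell division follow. Of chromatin regulators, 5 of 22 held one: Dido1, the H3K9 methyltransferase Ehmt1 (2401 bases), the demethylase Kdm4c (2341), Crebbp (2319 and 2097) and the H3K4 methyltransferase Kmt2c (2050). Of replication and repair genes, 5 of 19 did, led by Polq (2983), the polymerase of theta-mediated end joining, and Rev3l (2966 and 2127), the catalytic subunit of polymerase zeta, with Orc1 (2104), of the origin recognition complex, and Smchd1 (2088), a silencer of the inactive X, among the others. Of genes of RNA polymerase II and elongation, 3 of 15 did: Aff3 (2550), Ell (2080) and Ell2 (2038), all elongation factor genes with intronic peaks. Centrosome and kinesin genes gave 5 of 28, among them the mitotic kinesin Kif11 (2744), Akap9 (2319) and Kif4 (2243), then Kif16b (2137) and Kif18a (2055).

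Imprinted protein-coding genes held one in 3 of 13 cases: Trappc9 (2848 and 2100 bases), Zdbf2 (2664) and Zim1 (2200). Of pluripotency genes 1 of 6 did, the 5-methylcytosine oxidase gene Tet1 (2102), and of primitive endoderm genes 1 of 8, the laminin gene Lama1 (2583). None of 4 fibroblast markers with a peak held one. Long neuronal genes gave 1 of 12, Dpp6. With this few genes a list, none of these shares is called different from the background.

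Outside genes, the distance to the nearest gene of the same strand did not separate wide from remaining peaks beyond counting error. Of the 161 wide peaks there, 75 (46.6%) lay within 10 kb downstream of a gene end or touched a gene, and 43.9% of the remaining ones did, a difference of 2.71 points (-4.93 to 10.5). Both classes are counted as 1 because a wider peak just past a gene end touches that gene more easily: 30 wide peaks (18.6%) and 2.89% of the remaining ones touched one. Beyond 10 kb lay 70 wide peaks (43.5%) and 43.6% of the remaining ones. Of the 128 antisense wide peaks, 77 (60.2%) lay within 10 kb downstream of another gene of their own strand or touched it. Of the remaining antisense peaks 42.0% did, a difference of 18.1 points (9.32 to 26.3). Downstream without touching lay 46.1% of the wide and 39.7% of the remaining ones, a difference of 6.36 points (-2.18 to 15.1). Touching a gene were 14.1% of the wide and 2.30% of the remaining ones, and the part of width in this was not tested. Peaks of the other strand overlapped 217 wide peaks (14.7%) and 6.26% of the remaining ones. By midpoint alone, which does not depend on width, 68 wide peaks (4.59%) and 4.79% of the remaining ones lay inside a peak of the other strand, a difference of -0.20 points (-1.18 to 1.02).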

How the data were processed

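The authors deposited 1 list of peaks for the 9 RIP-seq libraries, with 6 columns that hold position, name, score and strand. The deposited score is 500 in every row and was not used. The submitters' processing notes name the build mm10, STAR, Subread and featureCounts. How peaks were called, pooled or filtered is not given in the sources used here. No values per library were used, so library depth is unknown.

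Starts were read as counted from 0, and coordinates are printed from 1. The midpoint set the place of a peak in GENCODE M21 (GRCm38, the assembly of mm10), in the order sense exon, sense intron, antisense, outside, with exons of all transcripts. Each sense peak had 1 gene, protein-coding first, then the shorter, and 66 sense wide peaks lay in more than 1 gene. Exonic base shares and layouts count exons of that gene only, whereas the midpoint class counts exons of any sense gene. Shares have 95% Wilson intervals and differences, wide minus remaining, 95% Newcombe intervals (Python 3.11.15, statsmodels 0.14.6), with no p-values. Placement and intervals were tested on simulated peaks. Sequence came from GENCODE M21 transcripts, leaving out retained introns, so only exonic peaks have it.

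Named genes are those of the 20 widest peaks, the 15 with most wide peaks, the 10 with the highest wide share among genes with at least 5 sense peaks, the 10 non-coding genes with most, the 10 widest inside 1 exon, up to 4 members a list, and Safb, Safb2 and Sltm. A few genes within the rule are left unreported, and others are named as picked by value or to complete a count. The members and the 16 lists (429 entries) were chosen with earlier results of these data known.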

Additional observations from a re-analysis of the deposited data

How the results depend on the processing

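Of 105 recomputed values over 16 results, 79 kept their direction and their side of the test or, for values with no test, stayed within the interval of the reported value or, for counts, within 1.5 times it. Among these last, the difference in exonic base share was 5.83 points at 3000 bases, with an interval that includes 0 (-0.70 to 12.4). The alternatives were width limits of 1500, 2500 and 3000 bases, other annotation and placement choices, a comparison with peaks of 1000 to under 2000 bases, each gene weighted once and, chosen after seeing the data, the central 500 bases. The share inside 1 exon differed by 0.75 points at 1500 bases, -0.59 at 2500, -0.42 at 3000 and -2.73 with each gene weighted once. The first 10% of the gene, -1.85 as reported, was -0.47 at 1500 and -2.12 at 3000, with intervals that include 0, and the last 10%, -0.68, was 1.89 at 3000. The 3′ UTR difference lost its interval above 0 at 2500 (7.79 points), at 3000 (8.52) and against peaks of 1000 to under 2000 bases (3.73), where the antisense difference was -0.85. With each gene weighted once, the coding difference was 0.88 and the exonic base share -2.67. Crossing an exon border, 15.1 points, was -2.02 over the central 500 bases. Genes with a wide peak numbered 2224 (33.3%), 356 (5.33%) and 105 (1.57%) at 1500, 2500 and 3000 bases, by the construction of the limit. The ratio of median gaps, 1.65, was 1.42 at 3000 and 1.30 against peaks of 1000 to under 2000 bases. The share of untied genes whose wide peaks were more exonic, 40.1%, was 46.1% at 1500, 32.7% at 3000 and 33.5% over the central 500 bases. The difference in mean purine share, -1.71 points, was -0.51 against peaks of 1000 to under 2000 bases. For changes not set by construction, the cause was not tested. No paired analysis was possible because the list holds no values per library. Depth limits every result to where peaks were called.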
